A study of Drosophila melanogaster with 12 samples.

Results

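Female Oregon flies (Drosophila melanogaster) that had eaten cisplatin were compared directly with flies that had eaten TiO2 nanoparticles, without a control library in the test. The comparison takes 6 of the 12 whole-body RNA-seq libraries of the series, chosen by their labels, 3 from cisplatin-fed and 3 from TiO2-fed flies. Earlier results of these data had shown these groups to have the closest replicates of the series. The cisplatin group received cisplatin alone and the TiO2 group received TiO2 nanoparticles alone. All flies carried the Oregon genotype, with no transgene or mutation named in the labels, and were kept for 3 days on standard medium enriched with yeast, a green food dye and either water or the aqueous agent. The remaining libraries come from flies given both agents together (3) and from flies given water (3), and are used here only as context. The treatment protocol gives both doses as 50 µg/ml, while the sample titles write 50 mg/ml. The labels do not say how many flies were pooled or whether the 3 libraries of a group come from separate pools, and the series design speaks of 3 runs per sample, so p-values measure the spread between these libraries, which may be technical.

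Cisplatin is a platinum drug that binds DNA, crosslinks it and so blocks replication and transcription, and cells answer such lesions with checkpoint kinases, excision and recombination repair and, when repair fails, apoptosis. TiO2 nanoparticles are particles of an insoluble oxide, studied mostly for the reactive oxygen species they can form at their surface and for their contact with the gut after feeding. Flies meet swallowed agents with detoxifying enzymes such as cytochromes P450, glutathione S-transferases and UDP-glycosyltransferases, with metal-binding metallothioneins, and with blood cells (hemocytes) that engulf particles and melanize wounds. A direct comparison asks which of these programmes differ in RNA level between the 2 agents.

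The 6 libraries held 26763042 to 46694769 gene counts, on average 38782263 ± 7037356 in cisplatin and 31399262 ± 4025495 in TiO2 (SD, n = 3 each). As a check of the label, Yp2, a yolk protein of adult females, had 10528, 7257 and 9977 CPM (counts per 1000000 gene counts) in cisplatin and 2372, 9824 and 8932 CPM in TiO2. The Acp and SP transcripts of the accessory gland and the Mst transcripts of the testis had between 0 and 7 counts per library. The whole list of male transcripts, which also holds genes such as Est-6, summed to 101, 104 and 102 CPM in cisplatin and 72.0, 122 and 69.0 CPM in TiO2. The male dosage compensation RNA roX1 had 119, 7 and 40 counts in cisplatin and 6, 32 and 23 counts in TiO2. One library stood apart. TiO2 replicate 1 held 30.6% of the variance within groups, and its highest correlation of log2 CPM with any other library was 0.973, against 0.982 to 0.990 between the cisplatin libraries and the other TiO2 libraries. Values that rest on TiO2 replicate 1 are therefore given with and without it.

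No gene passed the main test. Of 10405 genes with enough counts, 0 (0%) had a Benjamini-Hochberg adjusted p under 0.05 in edgeR's quasi-likelihood test, with 0.929 as the lowest value. Without adjustment, 453 genes (4.35%) had p under 0.05, of which 201 (1.93%) measured higher and 252 (2.42%) lower in cisplatin. The 3 cisplatin values and the 3 TiO2 values did not overlap in 1068 genes (10.3%), 561 (5.39%) with cisplatin above and 507 (4.87%) with cisplatin below. limma voom also called 0 genes, with 457 at an unadjusted p under 0.05, and DESeq2's Wald test called 14 of 10395 genes (0.135%), 7 higher (0.0673%) and 7 lower (0.0673%) in cisplatin. The set of 14 depended on single libraries: it became 35 genes without TiO2 replicate 1, 8 of them among the 14, and between 9 and 107 genes when any other library was left out. CG10621, PPO1 and Tsf1 were the genes that DESeq2 called with all libraries and again in each of the 6 fits with a library left out.

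The groups were close across the transcriptome. The median log2 fold change, cisplatin over TiO2, was 0.01, and the median standard error was 0.14. The 95% interval of the fold change lay within 2-fold either way for 8484 genes (81.5%) and within 1.5-fold for 6446 genes (62.0%). These intervals rest on the spread of the 6 libraries compared, whose groups had the closest replicates of the series. The biological coefficient of variation, the spread between replicates beyond counting error, was 0.21 over these 6 libraries and 0.44 over all 12. A fold change beyond 2 was estimated for 236 genes. Among genes with a mean of at least 5 CPM, 36 were more than 2-fold lower in cisplatin, and TiO2 replicate 1 was the highest library in 30 of them; 16 were still more than 2-fold lower without that library. Another 32 were more than 2-fold higher in cisplatin, with TiO2 replicate 1 the lowest library in 22, and 15 were still so without it. The plot of fold change against level shows how narrow the spread was among well-expressed genes.

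**Figure D1:**
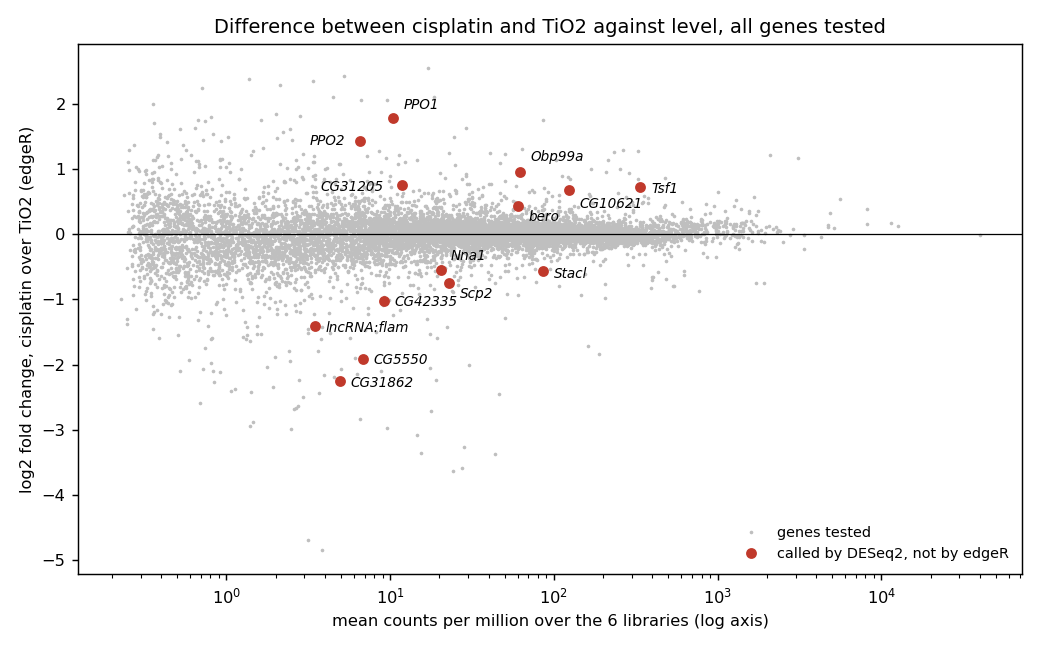
Each grey point is a gene tested, with its mean CPM over the 6 libraries on the horizontal log axis and its edgeR log2 fold change, cisplatin over TiO2, on the vertical axis; red points are the 14 genes that DESeq2 called. Most genes lie close to 0, and none passed edgeR's adjusted threshold.

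Prophenoloxidases had the largest fold changes among the genes that DESeq2 called higher in cisplatin. PPO1 and PPO2 encode the enzymes, made in crystal cells (a hemocyte type), that oxidize phenols to start melanin formation. PPO1 (FBgn0283437, chromosome arm 2R, 17887220 to 17889973) had 19.6, 12.1 and 16.5 CPM in cisplatin replicates 1 to 3, against 2.69, 5.64 and 5.70 CPM in TiO2 replicates 1 to 3. The lowest cisplatin library was above every TiO2 library. The log2 fold change was 1.79 ± 0.32 (SE; 95% interval 1.03 to 2.54), with an edgeR adjusted p of 0.929 and a DESeq2 adjusted p of 0.000307, and 1.5 without TiO2 replicate 1. PPO2 (2R, 9042261 to 9044709) had 10.6, 6.80 and 11.2 CPM in cisplatin, against 2.64, 4.77 and 3.24 CPM in TiO2. Its ranges did not overlap either, with a log2 fold change of 1.43 ± 0.29 (SE) and adjusted p-values of 0.929 in edgeR and 0.0113 in DESeq2. PPO3, the third family member, differed from both in direction, with 0.869, 0.530 and 1.10 CPM in cisplatin and 1.24, 1.11 and 1.42 CPM in TiO2. In the combination libraries PPO1 had 11.2, 3.46 and 8.24 CPM and in the controls 5.86, 8.28 and 5.09 CPM, on a scale set over all 12 libraries. The cisplatin and TiO2 values are on a scale set over the 6 libraries compared, so they are not ranked against these.

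The other blood-cell genes gave smaller differences, with Hml, Sr-CI and eater higher in all 3 cisplatin libraries. Hml, a clotting factor of plasmatocytes, had 26.7, 37.1 and 28.5 CPM in cisplatin, against 25.0, 23.2 and 18.7 CPM in TiO2 (log2 fold change 0.46, 95% interval 0.07 to 0.86). Sr-CI, a scavenger receptor for bacteria, had 11.2, 14.2 and 12.0 CPM in cisplatin and 9.09, 9.86 and 9.77 CPM in TiO2 (0.38, 0.05 to 0.70). The phagocytosis receptor eater had 4.52, 3.65 and 4.15 CPM in cisplatin and 3.52, 2.28 and 2.05 CPM in TiO2 (0.65, 0.04 to 1.25). The groups did not overlap for any of these 3 genes, and the edgeR adjusted p was 0.929 for Hml and Sr-CI. The crystal-cell transcription factor lz had 0.499, 0.781 and 0.579 CPM in cisplatin and 0.467, 0.678 and 0.559 CPM in TiO2, overlapping ranges at a low level. Col4a1, a basement-membrane collagen, had a log2 fold change of -0.13 and NimC4, an engulfment receptor, one of -1.34 with an interval of -3.17 to 0.49. Of the 20 hemocyte and melanization genes tested, 12 were higher and 8 lower in cisplatin, 5 (25.0%, beside 5.39% of all genes) had cisplatin wholly above TiO2 and 1 (5%, beside 4.87% of all genes) had it below, and the median log2 fold change was 0.12, or 0.20 without TiO2 replicate 1, beside 0.01 over all genes. In whole bodies, more cells of a type and more RNA per cell cannot be told apart, which holds for every tissue list below.

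Iron genes gave the most abundant of the transcripts that DESeq2 called. Tsf1 (X, 18387084 to 18390344) encodes transferrin, the iron carrier of the hemolymph, which is also released during infection. It had 359, 399 and 501 CPM in cisplatin, against 259, 281 and 224 CPM in TiO2, with no overlap. The log2 fold change was 0.72 ± 0.14 (SE), a 1.65-fold difference, with adjusted p-values of 0.929 in edgeR and 0.00792 in DESeq2, and 0.73 without TiO2 replicate 1. On the scale of 12 libraries, the water-fed controls had 423, 825 and 631 CPM and the combination libraries had 259, 251 and 238 CPM. The ferritin subunits Fer1HCH and Fer2LCH, which store iron and overlap each other on opposite strands, had log2 fold changes of 0.21 and 0.31, and of 0.10 and 0.16 without TiO2 replicate 1. The multicopper oxidase Mco1 had 13.0, 9.37 and 10.1 CPM in cisplatin and 7.72, 8.29 and 6.34 CPM in TiO2 (0.54, 95% interval 0.11 to 0.97). Of 11 iron genes tested, 10 were higher in cisplatin, 4 (36.4%) without overlap, beside 5422 of 10405 higher and 5.39% without overlap over all genes, and the median was 0.11, or 0.08 without TiO2 replicate 1.

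CG10621 had the smallest p in edgeR among genes with a mean of at least 5 CPM. The gene (FBgn0032726, 2L, 18952206 to 18954431) encodes a predicted homocysteine S-methyltransferase. It had 154, 138 and 162 CPM in cisplatin, against 88.8, 109 and 87.0 CPM in TiO2. The cisplatin libraries were all above the TiO2 libraries, at 151 ± 12.5 and 94.8 ± 12.0 CPM (SD, n = 3 each). The log2 fold change was 0.67 ± 0.11 (SE), with an unadjusted p of 0.000461 and an adjusted p of 0.929 in edgeR, and an adjusted p of 0.000502 in DESeq2; it was 0.62 without TiO2 replicate 1. The controls held 326, 164 and 129 CPM on the scale of 12 libraries, a wider range than in either group. The other folate and one-carbon genes did not share this difference as a list: 8 of 13 were higher and 5 lower, with a median of 0.05 that became -0.09 without TiO2 replicate 1.

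The remaining genes that DESeq2 called higher were bero, CG31205 and Obp99a. bero (2L, 20858695 to 20861014), a Ly6-family membrane protein, had 72.4, 65.7 and 69.2 CPM in cisplatin, against 49.0, 49.0 and 56.0 CPM in TiO2, a 1.35-fold difference with a DESeq2 adjusted p of 0.0186. This call was lost without TiO2 replicate 1, where DESeq2's adjusted p was 0.0621. CG31205 (3R, 20731631 to 20732707) had 15, 13.0 and 16.3 CPM in cisplatin and 8.68, 9.55 and 8.01 CPM in TiO2, with a DESeq2 adjusted p of 0.0113. Obp99a (3R, 29671657 to 29672334), an odorant-binding protein, had 99.4, 62.3 and 83.4 CPM in cisplatin and 32.2, 53.6 and 40.8 CPM in TiO2, with DESeq2 adjusted p-values of 0.0202 and, without TiO2 replicate 1, 0.10. All of these had an edgeR adjusted p of 0.929. On the scale of 12 libraries, the controls had 80.0, 111 and 95.2 CPM for bero and 59.4, 18.7 and 18.8 CPM for CG31205. For Obp99a they had 67.3, 84.2 and 91.5 CPM. Obp57c, another family member, had 30.6, 27.8 and 30.3 CPM in cisplatin and 22.0, 23.3 and 23.6 CPM in TiO2 (log2 fold change 0.37 ± 0.09, SE), which passed in neither tool. Its controls had 72.6, 54.1 and 58.6 CPM on the scale of 12 libraries.

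The genes that DESeq2 called lower in cisplatin included 2 calcium-related proteins of excitable cells, a carboxypeptidase and the flamenco RNA. Stacl (2R, 15401096 to 15471884), a Stac-family adaptor of voltage-gated calcium channels, had 66.2, 76.9 and 66.2 CPM in cisplatin, against 112, 107 and 89 CPM in TiO2. Scp2 (3R, 16574543 to 16583663), a sarcoplasmic calcium-binding protein, had 18.5, 16.3 and 16.1 CPM in cisplatin and 35.5, 24.9 and 25.4 CPM in TiO2. Nna1 (X, 13692292 to 13717835), a metallocarboxypeptidase, had 17.7, 17.2 and 15.2 CPM in cisplatin and 25.3, 22.9 and 24.8 CPM in TiO2. The log2 fold changes were -0.56 ± 0.11 for Stacl, -0.75 ± 0.16 for Scp2 and -0.54 ± 0.10 for Nna1 (SE), each with groups that did not overlap. The DESeq2 adjusted p was 0.0119 for Stacl, 0.0186 for Scp2 and 0.0119 for Nna1; without TiO2 replicate 1 it was 0.0508 for Stacl, 0.00573 for Scp2 and 0.0403 for Nna1. Sarcomere genes, given below, were also lower in cisplatin, by a median log2 fold change of -0.57, and 10 of 11 nervous system markers were lower; their part in these values was not tested. lncRNA:flam (X, 21631891 to 21790731), the flamenco piRNA cluster that silences transposons in ovarian follicle cells, had 1.61, 2.17 and 1.92 CPM in cisplatin, against 4.34, 7.05 and 3.77 CPM in TiO2. Its log2 fold change was -1.41 ± 0.29 (SE), and its DESeq2 adjusted p was 0.0202, or 0.0321 without TiO2 replicate 1. CG42335 had 6.75, 5.30 and 6.16 CPM in cisplatin and 13.9, 14.0 and 8.91 CPM in TiO2. CG5550 had 4.39, 2.17 and 2.01 CPM in cisplatin and 12.3, 14.7 and 5.44 CPM in TiO2, and CG31862 had 1.65, 1.64 and 1.83 CPM in cisplatin and 15.1, 6.56 and 2.80 CPM in TiO2. The lowest TiO2 library of each gene was replicate 3. Their log2 fold changes were -1.02, -1.91 and -2.26, and their DESeq2 adjusted p-values of 0.0185, 0.0119 and 0.0186 became 0.125, 0.109 and 0.164 without TiO2 replicate 1. CG5550 overlaps an antisense RNA, lncRNA:CR43417, and since the strand setting of the counting is not given, reads of the 2 cannot be told apart.

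**Figure D2:**
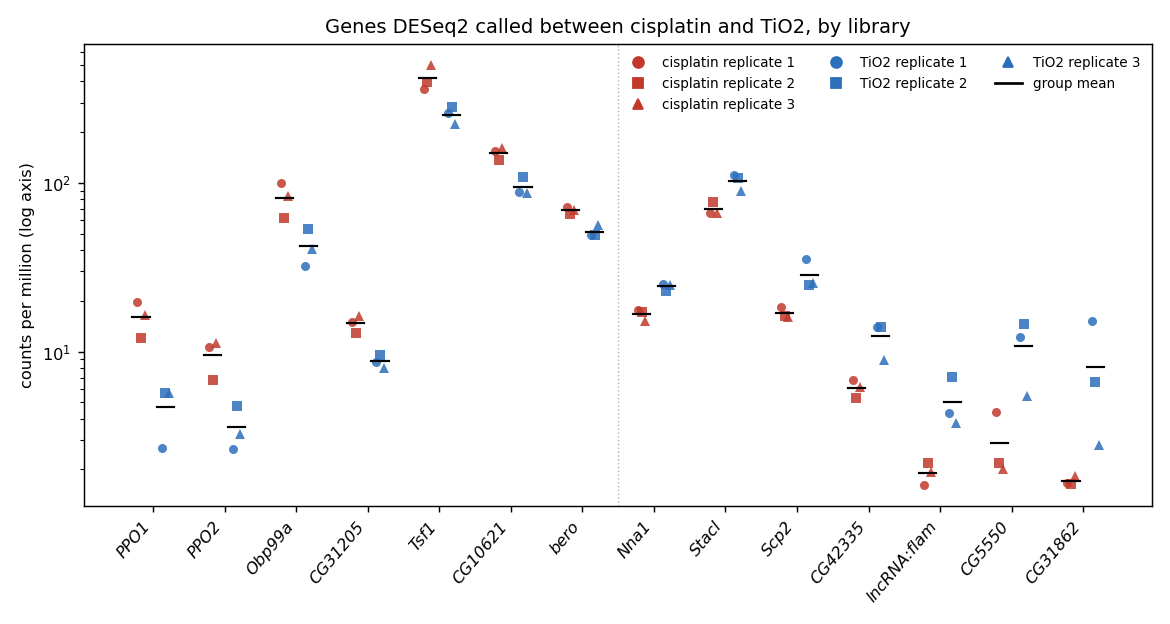
Points are CPM (log axis) of the 14 genes that DESeq2 called, with cisplatin replicates in red on the left and TiO2 replicates in blue on the right of each gene, and black bars for the group means. The 7 genes left of the dotted line had every cisplatin value above every TiO2 value and the 7 on the right had the reverse.

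The DNA damage programme, which cisplatin lesions are known to engage, was measured at nearly the same level in both groups. All 44 checkpoint and repair genes were tested, 20 higher and 24 lower in cisplatin, with a median log2 fold change of -0.02, or 0.04 without TiO2 replicate 1. For 42 of the 44 the 95% interval lay within 1.5-fold either way. p53, the damage-responsive transcription factor, had a log2 fold change of 0.13 (95% interval -0.13 to 0.40), and the ATR kinase mei-41 one of -0.13 (-0.32 to 0.05). The exceptions were mus101 and Gadd45. mus101, a replication and checkpoint scaffold (TopBP1 in mammals), had 48.8, 47.2 and 51.5 CPM in cisplatin and 72.5, 53.1 and 56.0 CPM in TiO2, with a log2 fold change of -0.30 (-0.60 to -0.0026) that became -0.15 without TiO2 replicate 1. Gadd45, a stress-induced growth arrest gene, had a log2 fold change of -0.42 with an interval of -1.3 to 0.46, too wide to place. These intervals bound the difference between the 2 agents only at the spread of these libraries, and say nothing of either agent against water.

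Cell cycle and apoptosis genes gave the same picture. Of 29 cell cycle and replication genes tested, 28 had an interval within 1.5-fold; the exception was the cyclin-dependent kinase inhibitor dap, with 88.1, 106 and 100.3 CPM in cisplatin and 149, 116 and 97.9 CPM in TiO2. PCNA, the replication clamp, had 237, 233 and 225 CPM in cisplatin and 229, 204 and 220.1 CPM in TiO2. The median over the list was -0.03, or 0.05 without TiO2 replicate 1. Of 14 apoptosis genes tested, 11 had an interval within 1.5-fold, among them the initiator caspase Dronc (-0.10, -0.36 to 0.15) and the effector caspase Drice (-0.06, -0.23 to 0.12). The cell-death inducer rpr had 0.413, 0.195 and 0.335 CPM in cisplatin and 3.38, 0.339 and 0.336 CPM in TiO2; its log2 fold change of -2.10 rested on TiO2 replicate 1 alone. None of the genes of these 3 lists passed in edgeR or DESeq2.

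**Figure D3:**
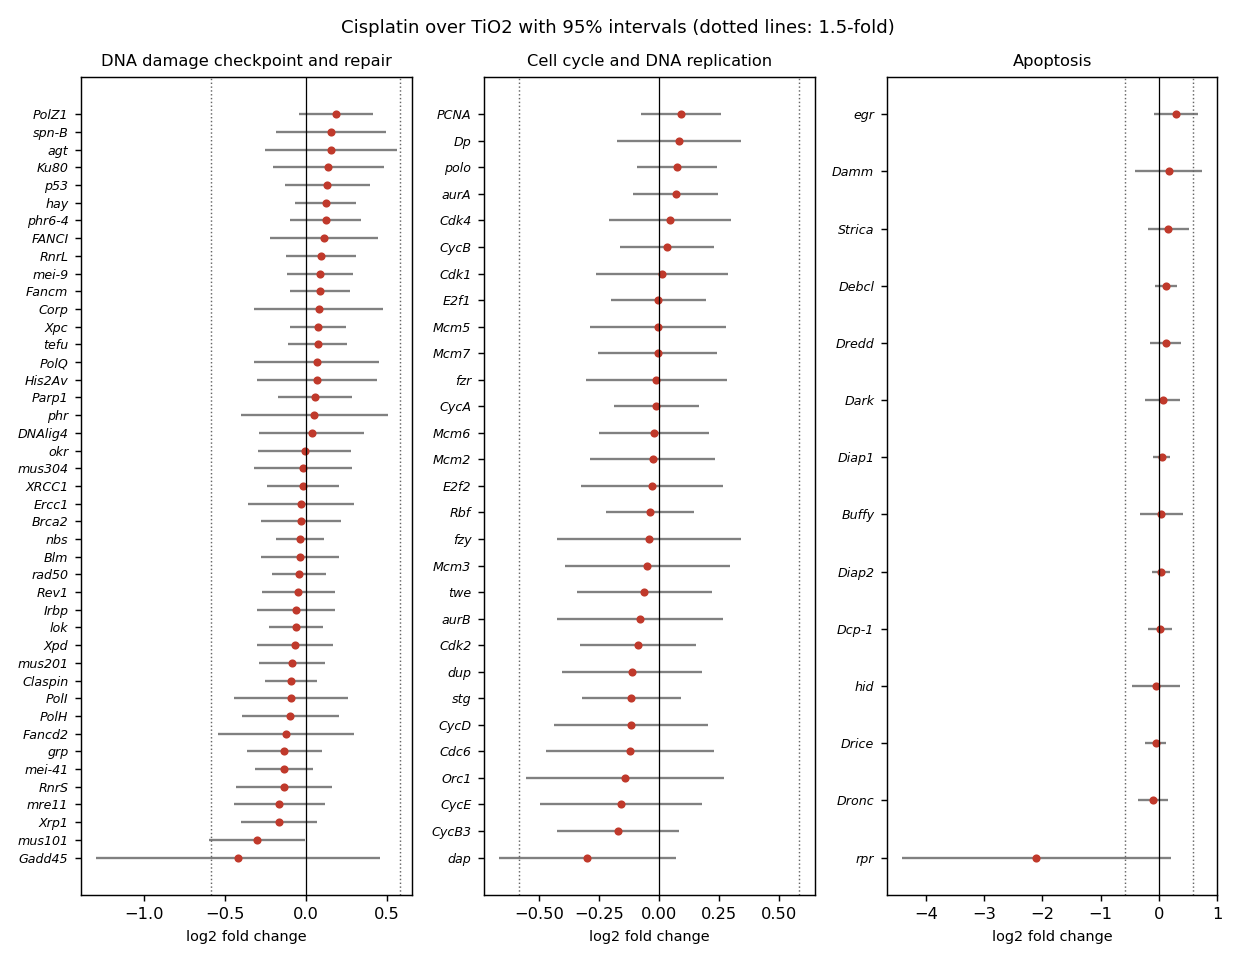
Red points are the edgeR log2 fold changes, cisplatin over TiO2, of the DNA damage, cell cycle and apoptosis genes tested (1 DNA damage gene is not shown), grey lines their 95% intervals, and dotted lines mark 1.5-fold either way; the 3 panels have their own horizontal scales. All but 6 of the intervals shown lie between the dotted lines.

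Stress signalling outside the damage programme leaned lower in cisplatin for a few genes. Socs36E, a target and inhibitor of JAK-STAT signalling, had 8.23, 11.3 and 11.0 CPM in cisplatin, against 17.6, 21.7 and 13.3 CPM in TiO2. The ranges did not overlap, and the log2 fold change of -0.79 (95% interval -1.3 to -0.28) was the same without TiO2 replicate 1, with an edgeR adjusted p of 0.929 and a DESeq2 adjusted p of 0.187. The co-chaperone stv (starvin) had 41.1, 51.5 and 52.8 CPM in cisplatin and 84.1, 64.6 and 59.2 CPM in TiO2 (-0.52, or -0.36 without TiO2 replicate 1). The heat shock list as a whole had a median of 0.00, with 11 genes higher and 13 lower, and the stress list of JNK, JAK-STAT and Turandot genes had 5 higher and 7 lower. Antimicrobial genes varied several-fold between replicates. Attacin A had 2.22, 2.84 and 9.39 CPM in cisplatin and 0.247, 2.19 and 15.1 CPM in TiO2. Metchnikowin (Mtk) had 1.54, 1.06 and 2.32 CPM in cisplatin and 2.45, 8.07 and 3.54 CPM in TiO2, without overlap (log2 fold change -1.52, 95% interval -2.70 to -0.33). Of the 36 antimicrobial genes tested, 20 were higher and 16 lower in cisplatin, while 12 were higher and 24 lower without TiO2 replicate 1. Cisplatin lay wholly above TiO2 in 2 of them (5.56%, beside 5.39% of all genes). It lay wholly below in 1, Mtk (2.78%, beside 4.87% of all genes).

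No detoxification gene passed in either tool with all 6 libraries. The glutathione S-transferase, cytochrome P450 and antioxidant lists had medians of 0.16, 0.15 and 0.10, beside 0.01 over all genes, and the UDP-glycosyltransferase list one of 0.01. Of 36 glutathione S-transferase genes tested, 29 were higher, with a median log2 fold change of 0.16, or 0.14 without TiO2 replicate 1. GstT1 had 70.2, 72.8 and 65.2 CPM in cisplatin and 55.7, 59.6 and 63.3 CPM in TiO2 (0.22, 95% interval 0.04 to 0.41). GstS1, which is abundant in flight muscle, had the opposite sign, with 192, 309.7 and 349 CPM in cisplatin and 632, 527 and 346 CPM in TiO2 (-0.82, -1.49 to -0.16). Of 77 cytochrome P450 genes, 55 were higher with a median of 0.15, or 0.10 without TiO2 replicate 1, and 8 (10.4%, beside 5.39% of all genes) had cisplatin wholly above TiO2. Cyp4ac2 had 5.17, 3.37 and 4.03 CPM in cisplatin and 1.59, 2.46 and 2.16 CPM in TiO2, and Cyp6a13 had 7.95, 8.81 and 7.84 CPM in cisplatin and 6.29, 3.79 and 5.82 CPM in TiO2. Their log2 fold changes were 1.02 and 0.63, with an edgeR adjusted p of 0.929 for both. The UDP-glycosyltransferases split evenly, 14 higher and 14 lower with a median of 0.01, or -0.01 without TiO2 replicate 1. Of 20 antioxidant genes 19 were higher, the list median being 0.10, or 0.08 without TiO2 replicate 1; catalase (Cat) averaged 302 ± 49.1 CPM in cisplatin and 244 ± 42.1 CPM in TiO2 (SD, n = 3 each). The exception was the glutathione synthetase gene Gss2, with 4.39, 4.77 and 4.06 CPM in cisplatin and 3.38, 8.93 and 12.3 CPM in TiO2; without TiO2 replicate 1 its log2 fold change was -1.27 and DESeq2 called it (adjusted p = 7.85e-05).

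None of the 16 metallothionein and copper or zinc handling genes tested passed in either tool. MtnE and MtnD were the 2 of 16 genes tested (12.5%, beside 5.39% of all genes) with cisplatin wholly above TiO2, and none had it below. Of 16 tested, 13 were higher and 3 lower in cisplatin, with a median log2 fold change of 0.06, or 0.05 with 10 higher and 6 lower without TiO2 replicate 1. Metallothioneins are small cysteine-rich proteins that bind copper, zinc and cadmium and, in mammals, also platinum. MtnE had 11.9, 9.34 and 13.6 CPM in cisplatin, against 5.22, 7.64 and 5.03 CPM in TiO2, and MtnD had 27.7, 33.7 and 18.3 CPM in cisplatin, against 7.20, 17.5 and 17 CPM in TiO2. Neither gene's ranges overlapped. On the scale of 12 libraries, the controls had 36.0, 14.7 and 18.9 CPM for MtnE and 54.3, 17.7 and 26.0 CPM for MtnD. The combination libraries had 11.6, 26.3 and 4.96 CPM for MtnE and 19.0, 23.1 and 9.34 CPM for MtnD. The log2 fold change was 0.96 (95% interval 0.43 to 1.49) for MtnE and 0.94 (0.07 to 1.81) for MtnD, or 0.87 for MtnE and 0.62 for MtnD without TiO2 replicate 1, with an edgeR adjusted p of 0.929 for each and DESeq2 adjusted p-values of 0.0721 for MtnE and 0.588 for MtnD. MtnA, another family member, had 231, 177 and 108 CPM in cisplatin and 103, 159 and 227 CPM in TiO2, fully overlapping. The copper importer Ctr1A, the exporter ATP7 and the regulator MTF-1 had log2 fold changes of 0.04, -0.10 and 0.05.

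Cubn2 and Amnionless were the 2 of 9 nephrocyte genes tested (22.2%, beside 5.39% of all genes) with cisplatin wholly above TiO2. None had it below, and no gene of the list passed in either tool. Of the 9, 6 were higher and 3 lower in cisplatin, with a median log2 fold change of 0.20, or 0.09 without TiO2 replicate 1. Cubn2 and Amnionless encode parts of the cubilin complex with which nephrocytes take up protein from the hemolymph. Cubn2 had 9.27, 6.13 and 4.82 CPM in cisplatin, against 3.21, 3.36 and 3.02 CPM in TiO2. Its log2 fold change of 1.08 (95% interval 0.45 to 1.7) was the same without TiO2 replicate 1. On the scale of 12 libraries, the controls had 14.8, 15.2 and 12.3 CPM and the combination libraries 1.38, 3.58 and 1.44 CPM. Amnionless had 1.74, 1.48 and 0.854 CPM in cisplatin and 0.412, 0.555 and 0.559 CPM in TiO2 (1.42, 0.62 to 2.23), and Cubn overlapped between the groups (0.20). The slit diaphragm scaffold pyd had a log2 fold change of -0.13 (95% interval -0.30 to 0.05). Their DESeq2 adjusted p-values were 0.139 for Cubn2 and 0.513 for Amnionless.

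The lists of whole tissues moved with single libraries. All 23 yolk and eggshell genes were higher in cisplatin, with a median log2 fold change of 0.49, but 12 were higher and 11 lower without TiO2 replicate 1, with a median of 0.00. The chorion gene Cp36 had 3221, 2132 and 3432 CPM in cisplatin and 96.0, 1797 and 1908 CPM in TiO2. Gut digestive enzymes behaved alike, with 45 of 53 higher and a median of 0.28 that was 0.04 without TiO2 replicate 1; their summed level was 10112, 7838 and 7418 CPM in cisplatin and 4336, 8201 and 8104 CPM in TiO2. Within that list mag, a lipase secreted into the gut, had 42.3, 50.4 and 38.9 CPM in cisplatin and 24.6, 28.4 and 34.4 CPM in TiO2 without overlap (log2 fold change 0.59, or 0.48 without TiO2 replicate 1). The satiety gene fit had 191, 77.3 and 127 CPM in cisplatin and 9.95, 69.3 and 37.6 CPM in TiO2 (1.76, 95% interval 0.25 to 3.27, or 1.3 without TiO2 replicate 1), and it overlaps other genes on both strands.

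Muscle, cuticle and eye genes leaned lower in cisplatin with and without that library. All 25 sarcomere genes were lower, with a median of -0.57, or -0.42 and again all 25 without TiO2 replicate 1; the median ranged from -0.77 to -0.40 with each library left out in turn, nearest 0 without cisplatin replicate 1. Their summed level was 5827, 10068 and 11357 CPM in cisplatin, against 16379.9, 15299 and 9708 CPM in TiO2, so the ranges overlapped, with cisplatin replicate 1 lowest, and an exact permutation test gave p = 0.3 (two-sided; the smallest possible with 3 against 3 is 0.1). Zasp52, a Z-disc protein, had 254, 317 and 315 CPM in cisplatin and 410.4, 451 and 361 CPM in TiO2 without overlap (-0.46, 95% interval -0.75 to -0.18, edgeR adjusted p 0.929). Of 33 cuticle genes tested, 24 were lower and 9 higher, with a median of -0.80, or -0.66 without TiO2 replicate 1. With each library left out the median ranged from -1.28 to -0.48. Cisplatin lay wholly below TiO2 in 3 (9.09%, beside 4.87% of all genes) and wholly above in 2 (6.06%, beside 5.39%). The summed cuticle level overlapped, at 118, 440 and 399 CPM in cisplatin and 966, 893 and 181 CPM in TiO2 (exact permutation p = 0.3, two-sided). Cpr97Ea had 0.0652, 0.362 and 0.366 CPM in cisplatin and 18.7, 3.27 and 0.112 CPM in TiO2. Cpr67B went the other way without overlap, with 20.9, 21.9 and 26.1 CPM in cisplatin and 18.9, 18.1 and 14.2 CPM in TiO2. Of 24 phototransduction genes, 19 were lower with a median of -0.19, or -0.16 without TiO2 replicate 1, and from -0.23 to -0.05 with each library left out, nearest 0 without cisplatin replicate 1. Of 11 nervous system markers tested, 10 were lower with and without it.

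**Figure D4:**
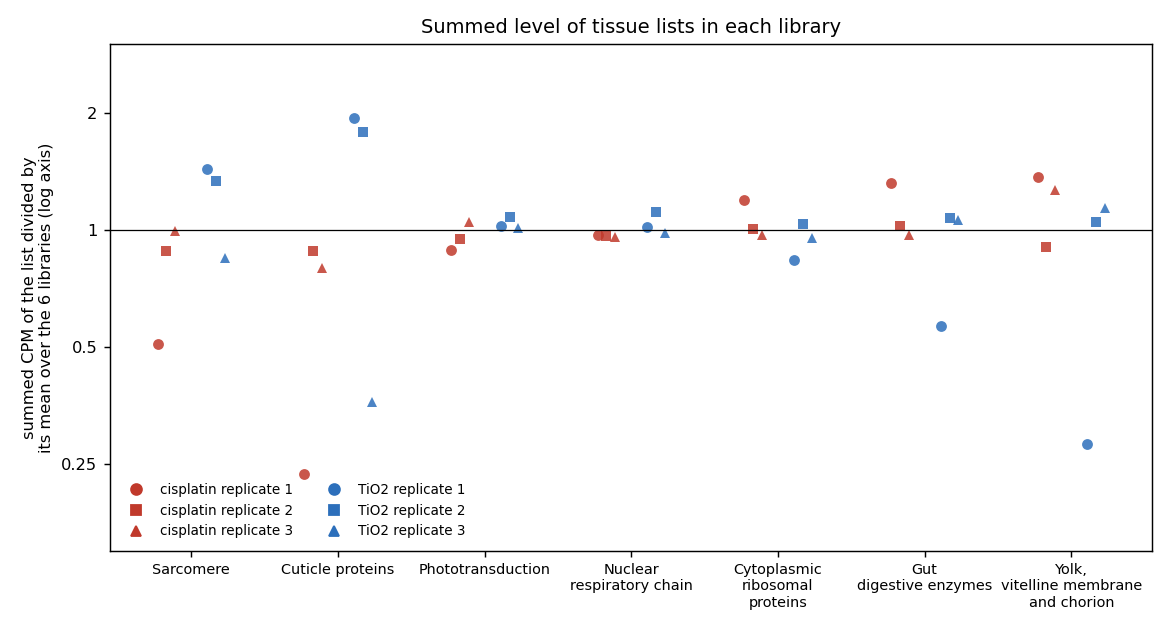
Each point is the summed CPM of a gene list in 1 library divided by the mean of that sum over the 6 libraries (log axis), with cisplatin in red on the left and TiO2 in blue on the right of each list. TiO2 replicate 1 is lowest for yolk and eggshell and for gut genes, and cisplatin replicate 1 is lowest for sarcomere and cuticle genes.

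Respiratory chain and ribosomal protein lists had small medians of opposite sign, and none of their genes passed in either tool. Of 66 nuclear respiratory chain genes tested, 63 were lower in cisplatin, with a median log2 fold change of -0.08, or -0.10 without TiO2 replicate 1, and 9 (13.6%, beside 4.87% of all genes) had cisplatin wholly below TiO2. Cyt-c1, of complex III, had 409, 377 and 378 CPM in cisplatin and 442, 458 and 419 CPM in TiO2, a log2 fold change of -0.18 ± 0.07 (SE, edgeR adjusted p 0.929). Of 86 cytoplasmic ribosomal protein genes, 84 were higher with a median of 0.16, or 78 with a median of 0.09 without TiO2 replicate 1. Only 2 (2.33%, beside 5.39% of all genes) had cisplatin wholly above TiO2 and 1 (1.16%, beside 4.87%) had it below, both shares under those of all genes. Genes of the mitochondrial genome took 7.37 ± 1.10% of counts in cisplatin and 7.28 ± 0.438% in TiO2 (SD, n = 3 each; exact permutation p = 0.9, two-sided). Of the 16 tested, 11 were higher and 5 lower, with a median log2 fold change of 0.16, or 0.09 without TiO2 replicate 1. Cisplatin lay wholly above TiO2 in 2 (12.5%, beside 5.39% of all genes) and wholly below in 0. mt:ND6 had 4.71, 5.19 and 4.39 CPM in cisplatin and 3.46, 1.29 and 1.42 CPM in TiO2, a log2 fold change of 1.2. Without TiO2 replicate 1 it was 1.81, and DESeq2 called it (adjusted p = 7.47e-07). In that setting DESeq2 also called mt:ND4L (1.40, adjusted p = 0.0324) and mt:ATPase8 (2.12, adjusted p = 5.58e-07). Of the remaining lists, the median log2 fold change was 0.09 for 27 odorant-binding protein genes (0.17 without TiO2 replicate 1), 0.06 for 35 proteasome genes (0.12 without it), 0.02 for 22 vacuolar proton pump genes (-0.03) and 0.01 for 23 ovarian germline genes (-0.03). It was -0.02 for 20 fed-state and insulin genes (-0.06 without TiO2 replicate 1), -0.03 for 20 lipid genes (-0.02) and -0.06 for 23 ecdysone and juvenile hormone genes (-0.13). Members of a list share tissues and libraries, so their shared sign is a description and not a count of independent results.

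**Figure D5:**
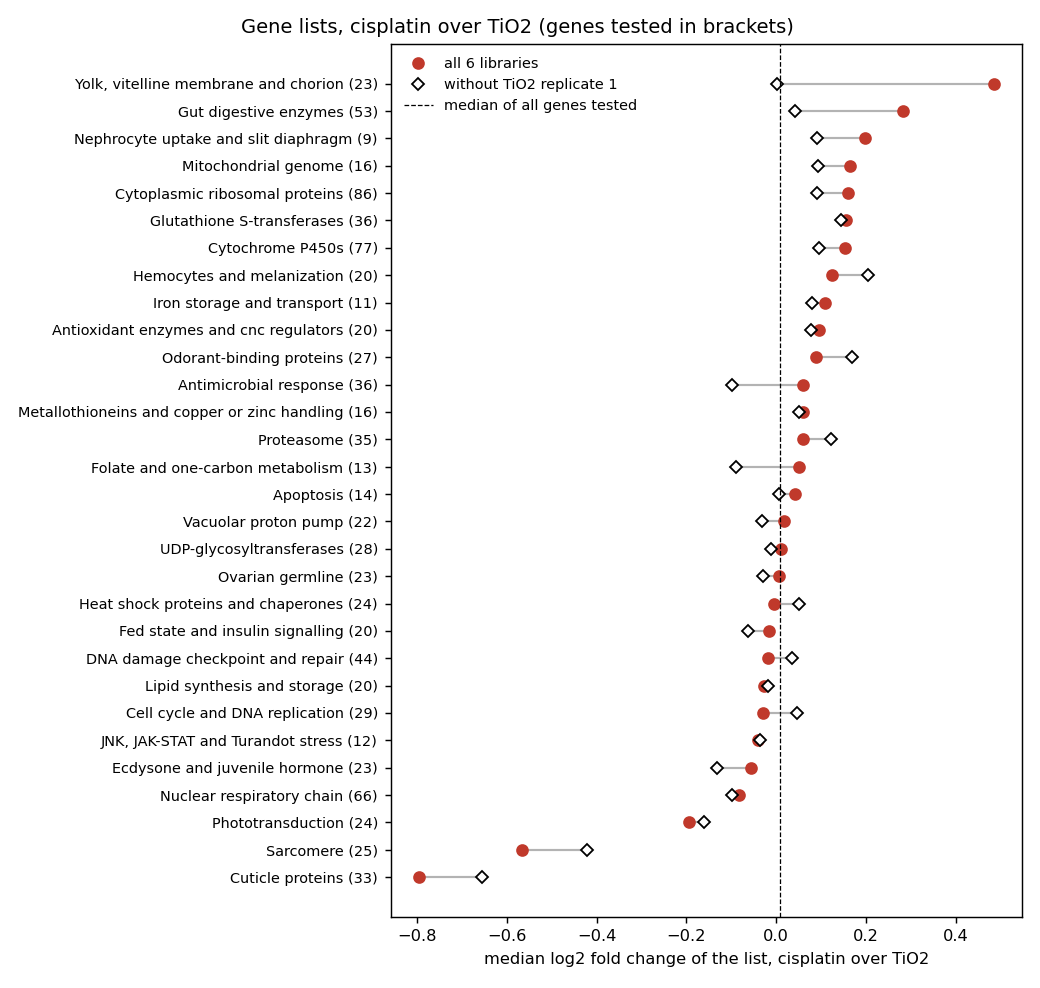
Red circles are the median edgeR log2 fold changes, cisplatin over TiO2, of the 30 gene lists with all 6 libraries, white diamonds the medians without TiO2 replicate 1, and the dashed line the median of all genes tested. The yolk and gut medians moved to 0.00 and 0.04 without that library, while the sarcomere and cuticle medians stayed at -0.42 and -0.66.

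The genes that stood out in the comparisons of single treatments with water and are not given above had these values. CG6409 had 269, 275 and 396 CPM in cisplatin and 307, 239.8 and 230.5 CPM in TiO2 (log2 fold change 0.27, 95% interval -0.16 to 0.71). CG15739, CG1246 and Nmdmc, a folate enzyme of mitochondria, had log2 fold changes of -0.07, -0.11 and 0.05, with overlapping ranges and intervals within 1.5-fold either way.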

How the data were processed

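Deposited by the authors were raw gene counts of 12 libraries made with a stranded mRNA kit; the submitters' processing notes name FastQC, Trimmomatic, BWA, SAMtools and HTSeq without versions, and the genome build and strand setting are not given in the sources used here. The count table's own coordinates are printed. Counts were fitted in R 4.3.3 with edgeR 4.0.16 (TMM, filterByExpr, quasi-likelihood test, 6 libraries, Benjamini-Hochberg over 10405 genes), after tests on simulated data; DESeq2 1.42.0 and limma 3.58.1 were alternatives. CPM use TMM-scaled totals. A count of 0 allows up to 0.0642 to 0.112 CPM (3 counts, counting error only). The members and gene lists were chosen with earlier results of these data known. Since no gene passed, the named genes are the 5 with the smallest p in each direction at a mean of at least 5 CPM, up to 4 members per list at 1 CPM or more, and genes named for a single treatment; others, such as eater, lz, rpr, Gadd45, p53, MtnA, Amnionless, GstD2 and the genes that only DESeq2 named, were chosen after their values were seen. The authors' own comparison tables were not used here. The values of 1 DNA damage gene are not reported here, though it is counted in its list.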

Additional observations from a re-analysis of the deposited data

How the results depend on the processing

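edgeR called 0 genes under every alternative: all 12 libraries in the fit (55 at an unadjusted p under 0.05), RLE factors (453), no mitochondrial genes (451), no filter (571), and each library left out (303 to 640). limma voom also called 0, with 457, or 560 with sample weights. DESeq2 called 14, and 9 to 107 with a library left out (a setting chosen after seeing the data): 23, 16 and 9 without cisplatin replicates 1, 2 and 3, and 35, 54 and 107 without TiO2 replicates 1, 2 and 3. Deviations of same-numbered libraries from their group means had correlations of -0.29, -0.07 and -0.16. With 3 libraries per group and TiO2 replicate 1 apart, these values cannot settle whether the numbers pair libraries. With the replicate block 0 genes were called and 275 had an unadjusted p under 0.05. Alternative fold changes were compared for only 28 of the named genes, and 8 of these 560 values changed sign. Without cisplatin replicate 3, the CG15739 log2 fold change became 0.0592 in edgeR and 0.0521 in DESeq2 and the CG1246 log2 fold change 0.0314 and 0.0266. Without cisplatin replicate 2, the Nmdmc log2 fold change became -0.0724 and -0.0763 and the GstD2 log2 fold change -1.08 and -1.09. The leave-one-out ranges were -0.18 to 0.06 for CG15739, -0.25 to 0.03 for CG1246, -0.07 to 0.19 for Nmdmc and -1.08 to 2.64 for GstD2. With a library left out, the mitochondrial share, cisplatin minus TiO2, ranged from -0.421 to 0.675 percentage points, the summed midgut enterocyte markers from -95.9 to 230 CPM and the Malpighian tubule markers from -5.84 to 7.22 CPM, all through 0. The cause was not tested. Of 419 alternative list medians, 11 moved by more than the spread between replicates. The median SD of log2 CPM was 0.12 in cisplatin and 0.17 in TiO2.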

Other observations

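Cisplatin replicate 2 held a set of detoxification transcripts far above every other library. GstD2 had 3.32, 83.3 and 3.23 CPM in cisplatin and 5.71, 5.27 and 9.88 CPM in TiO2. GstD5 had 8.30, 37.5 and 0.793 CPM in cisplatin and 2.75, 4.53 and 3.95 CPM in TiO2, and Ugt37A3 had 9.25, 72.7 and 5.73 CPM in cisplatin and 5.06, 6.22 and 3.65 CPM in TiO2. In all, 7 genes were more than 3 times as high in that library as in each of the other 5, namely GstD2, GstD5, GstD10, Cyp9b2, Ugt37A2, Ugt37A3 and CG11893. All are seen in 1 library of 1 group.

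TiO2 replicate 1 had 16 genes more than 3 times above every other library, among them the chitin synthase kkv, the chitin-binding proteins Gasp and obst-A and the chitin deacetylase verm, and 65 genes more than 3 times lower than every other library, among them the yolk gene Yp2, vitelline membrane and chorion genes and the antimicrobial genes Def, Dro and AttA. Cisplatin replicate 1 had 11 genes more than 3 times lower than every other library, among them the flight muscle actin Act88F and the cuticle genes Acp65Aa and Cpr92F.

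The storage proteins Lsp1beta and Lsp2 were the 2 of 9 fat body markers tested (22.2%, beside 5.39% of all genes) with cisplatin wholly above TiO2. None of the 9 passed in edgeR or DESeq2. Lsp2 had 152, 304 and 223 CPM in cisplatin and 81.3, 118 and 138 CPM in TiO2, and Lsp1beta had 35.9, 65.2 and 70.0 CPM in cisplatin and 35.3, 24.8 and 11.7 CPM in TiO2. Their log2 fold changes were 1.01 (95% interval 0.34 to 1.68) and 1.25 (0.27 to 2.23). fat-spondin, a secreted fat body protein, had 39.2, 43.7 and 46.6 CPM in cisplatin and 31.6, 34.2 and 31.8 CPM in TiO2, with a log2 fold change of 0.41 ± 0.09 (SE) and an edgeR adjusted p of 0.929. Of the 9 fat body markers tested, 6 were higher and 3 lower in cisplatin, with a median log2 fold change of 0.33, while without TiO2 replicate 1 the median was 0.01, with 5 higher and 4 lower.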
